A study of Mus musculus with 6 samples.

Results

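The Reg family lectins are small secreted proteins of the intestinal epithelium, and 5 of their genes were followed here across the jejunal epithelium of mice on 2 diets and after bariatric surgery. The members *Reg1*, *Reg3a*, *Reg3b*, *Reg3g* and *Reg4* were taken by symbol from the features of the count matrices, where they are 5 of 7 symbols of the family and 5 of 32285 genes. The choice is by gene name, and it was made with earlier results of these data known. The other two family symbols, *Reg2* and *Reg3d*, had almost no counts. Adult male wildtype C57BL/6J mice of about 30 weeks had received a low-fat diet (LFD) or a high-fat diet (HFD) for 16 weeks by the time of a sham operation or vertical sleeve gastrectomy (VSG, removal of most of the stomach along its greater curvature). They went back to the same diet and were studied 5 weeks after the operation. All were fasted overnight before the jejunum was taken. Cells of 3 LFD sham mice, 3 HFD sham mice and 2 HFD VSG mice were pooled within each group and separated into a crypt and a villus suspension, which gave 6 single-cell libraries. No low-fat diet group with VSG was included. Each group and fraction is therefore 1 library of pooled animals. No test between groups was possible, and the 95% intervals below cover counting error only.

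Reg proteins are C-type lectins, named after a carbohydrate-binding fold. REG3G binds peptidoglycan of Gram-positive bacteria and helps to keep bacteria away from the villus surface, and REG3B acts mainly on Gram-negative bacteria. In the small intestine both genes are induced by microbes through MyD88 and by interleukin 22 through its receptor and STAT3. *Reg1* is best known from the pancreas and from regenerating tissue, and *Reg4* marks secretory cells of the gut, including the enterochromaffin cells that make serotonin with the enzyme encoded by *Tph1*.

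The genes of the family other than *Reg4* lie side by side: 6 family genes, *Reg2* and *Reg3d* among them, occupy 98.2 kb of mouse chromosome 6 (chr6:78370657-78468872, GRCm38). *Reg3b* (chr6:78370657-78373466), *Reg3a* (chr6:78380709-78383827) and *Reg1* (chr6:78422711-78428667) are on the plus strand and *Reg3g* (chr6:78466269-78468872) is on the minus strand, while *Reg4* lies apart (chr3:98222156-98236748, plus strand). The results turn mainly on the 3 *Reg3* genes, and the 150 bases before the first exon of each are shown to let their starts be compared. All 5 members were found in the RefSeq promoter table (GRCm38.p6), from which these stretches were read 5′ to 3′ on the gene's own strand. Capitals mark a match to TATAAA, the core of the TATA box, or to TTCNNNGAA, the palindrome that STAT proteins bind, both searched on both strands in the 300 bases around each start. The *Reg3b* stretch lies between the exons of a longer annotated *Reg3b* transcript, and the other stretches lie outside the genes.
Reg3b (chr6:78370711-78370860, plus strand): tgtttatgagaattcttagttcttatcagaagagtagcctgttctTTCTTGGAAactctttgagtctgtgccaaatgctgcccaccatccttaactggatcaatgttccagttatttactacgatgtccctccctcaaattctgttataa
Reg3g (chr6:78468873-78469022, minus strand): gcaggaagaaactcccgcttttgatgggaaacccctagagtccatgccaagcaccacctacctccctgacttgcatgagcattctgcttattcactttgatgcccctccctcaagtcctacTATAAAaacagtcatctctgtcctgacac
Reg3a (chr6:78380559-78380708, plus strand): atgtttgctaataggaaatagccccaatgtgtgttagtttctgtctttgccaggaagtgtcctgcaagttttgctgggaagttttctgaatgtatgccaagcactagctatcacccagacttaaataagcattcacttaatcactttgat
The *Reg3b* stretch held a TTCNNNGAA match 96 bases before the exon, and the *Reg3g* stretch held TATAAA 23 bases before its exon. In *Reg3b* a TATAAA match ran across the exon start itself, and the 300 bases around the *Reg3a* start held neither motif. Of all 32851 windows of the same length in the table, 13.6% held TATAAA and 8.30% held TTCNNNGAA, so that a match is a description and not a sign of binding. The *Reg3b* and *Reg3g* stretches were identical at 82 of 125 aligned bases, *Reg3a* and *Reg3g* at 73 of 98, and *Reg3a* and *Reg3b* at 75 of 120. The transcripts of these 3 genes were 70.3% to 75.5% identical, and no pair shared a run of 25 bases within the last 300 bases, the end from which the reads of a 3′ library come.

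Several properties of the libraries bear on every value. The 2 fractions did not match their labels: stem-like cells made up 7.86%, 3.38% and 11.9% of the epithelial cells in the villus-labelled LFD sham, HFD sham and HFD VSG libraries, but 1.10%, 1.78% and 3.33% in the crypt-labelled ones, and Paneth-like cells were also the larger share in every villus-labelled library. Crypt-labelled and villus-labelled are therefore names of suspensions only, and each result is given in both. Between 7765 and 12012 barcodes per library had been called as cells, with 60522766 to 155522445 unique molecular identifiers (UMIs, 1 for each captured transcript), and 23668 of 59457 passed the filters. Pairs of libraries shared 17 to 43 barcodes, at most 0.450% of the smaller library. Enterocyte-like cells of the HFD VSG villus-labelled library were deeper, with a median of 33893 UMIs against 11844 to 17580 in the other 5. The 4 genes that mark damaged droplets took 14562 and 10060 counts per 1000000 (CPM) of the enterocyte-like UMIs in the HFD VSG crypt-labelled and villus-labelled libraries, and 51595 to 85156 CPM in the other 4, and their part in the results was not tested. Of 8 pancreatic acinar genes, 4 to 7 were at 0 in enterocyte-like cells and their sum was at most 18.1 CPM there. In Paneth-like cells 6 or 7 of the 8 were at 0, and the sum was 3948 to 4810 CPM. Of the 8, *Clps* was among the 10 leading genes of the Paneth-like cluster. Genes of B and plasma cells summed to at most 23.1 CPM and stromal genes to at most 0.553 CPM in enterocyte-like cells.

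Cells were grouped without the 5 members among the clustering genes, and classes were named from markers that hold no member. The 18 clusters gave 1765 to 3311 enterocyte-like cells per library, 128 to 937 dividing-like, 100 to 343 goblet-like, 43 to 455 stem-like, 28 to 225 Paneth-like, 21 to 42 cells like enteroendocrine cells (EEC-like), 11 to 57 tuft-like and 6 to 562 immune-like cells. Cluster 3 (1878 shallow cells) and cluster 11 (687 cells) met 10 of 10 enterocyte markers but stayed unnamed for their leading genes. Unnamed cells were 5.85% to 16.4% of the epithelial cells of a library and are in none of these classes. The dividing-like class joined cluster 4 (1687 cells) and cluster 13 (584 cells), which both met 10 of 10 dividing markers. At resolution 0.8 a cluster of 1530 cells with the same leading genes as cluster 4 met no marker rule and stayed unnamed. Much of the class is thus less firmly named as dividing. The Paneth-like cluster held 612 cells, against 400 deeper cells at resolution 0.8. Shallow clusters of 1465 and 214 cells there had Paneth as their best class but stayed unnamed. Levels are CPM, the UMIs of a gene per 1000000 UMIs of all cells of a class in a library. A 3′ library counts 1 end of each transcript, so that CPM values of different genes can be set side by side without a correction for length. *Reg3b* and *Reg3g* RNA was plentiful outside cells too: droplets without a cell held 3162 to 8378 CPM of *Reg3b* and 759 to 3287 CPM of *Reg3g*. This free RNA enters every cell. The share of a class's counts that it could account for, taken as an equal draw per droplet, is given for many of the values where it is large. The study's methods give higher background fractions for both HFD sham libraries than for the others. At those fractions the shares in HFD sham would be larger. In immune-like cells, which should lack *Reg3b* and *Reg3g*, free RNA could account for 97.1% to 116% of the *Reg3b* UMIs in 4 of the 6 libraries. The amount of free RNA was set from enterocyte marker UMIs in these same cells, so this is no independent check of it.

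**Figure D1:**
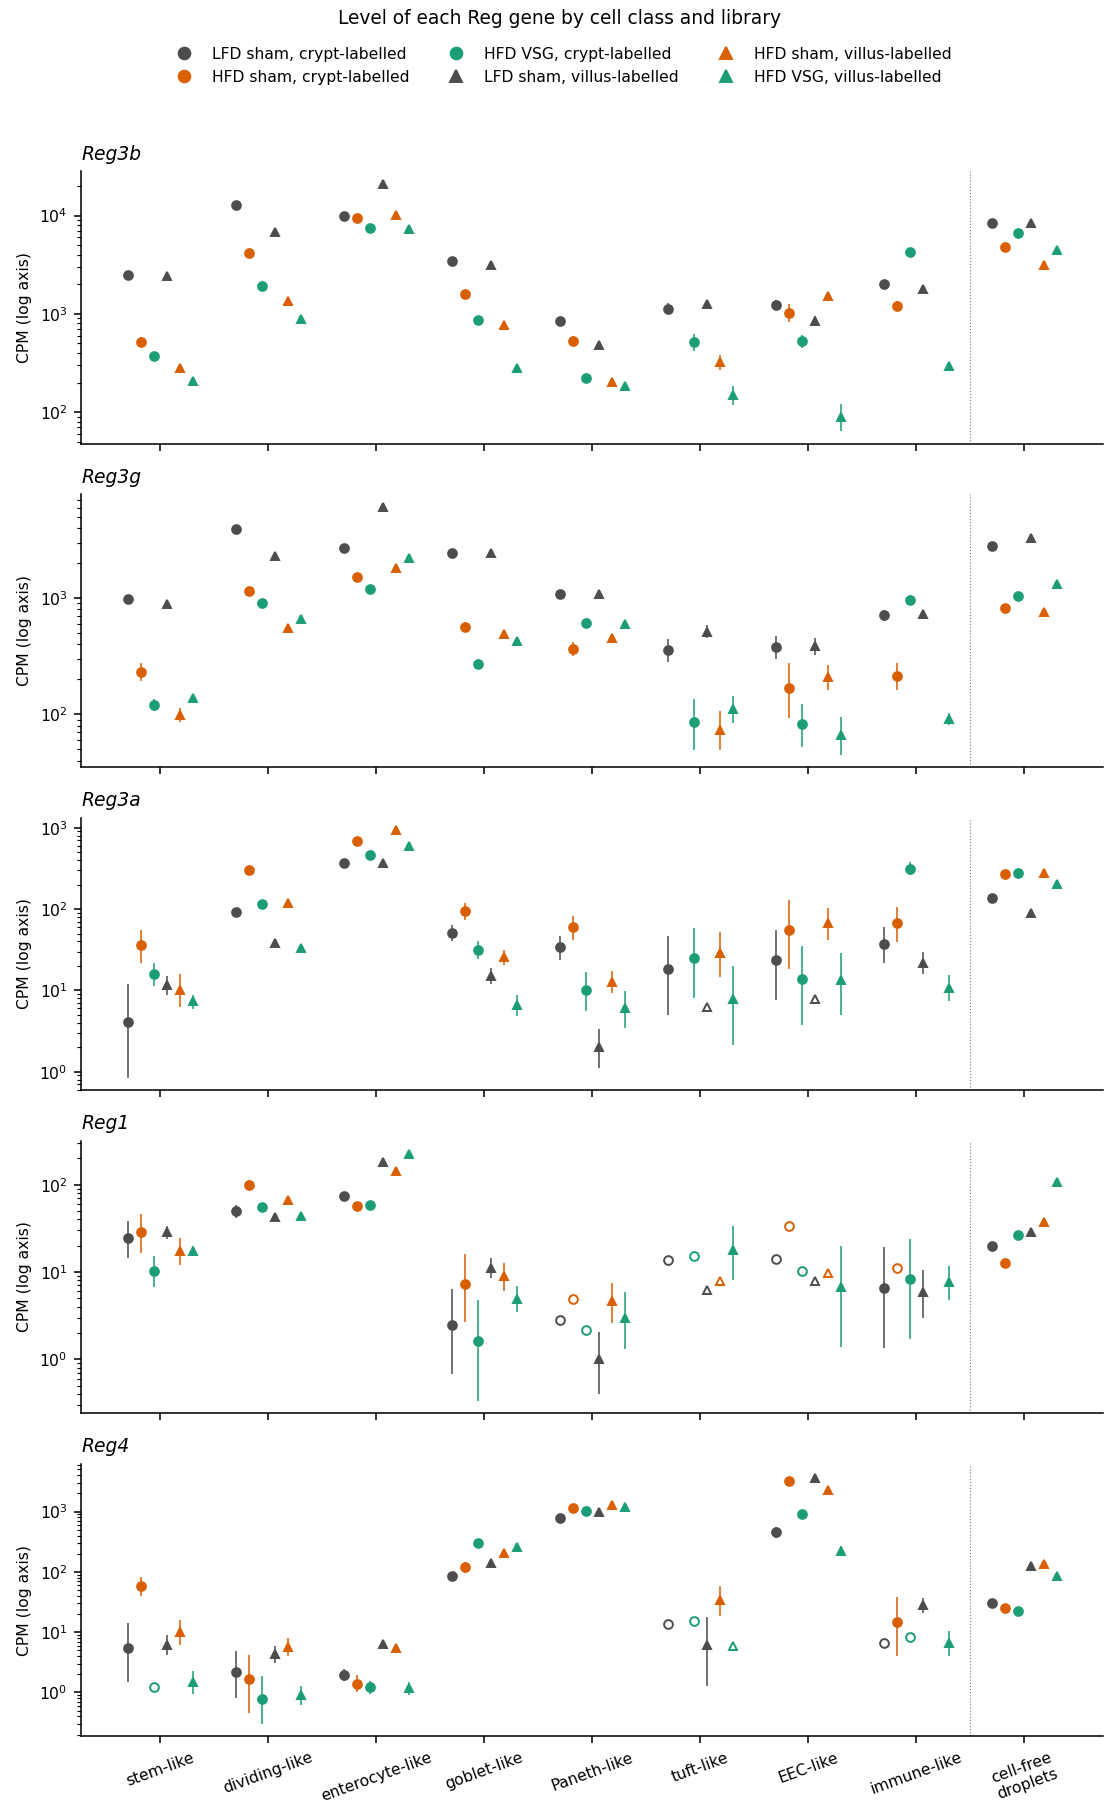
Level of each member in CPM (log axis) by cell class, 1 symbol per library, with 95% Poisson intervals; open symbols stand for fewer than 3 UMIs and are drawn at the 3-UMI floor, classes under 20 cells are left out, and droplets without a cell are right of the dotted line. *Reg3b*, *Reg3g* and *Reg3a* have their highest median over the libraries in enterocyte-like cells, and *Reg4* is high in EEC-like, Paneth-like and goblet-like cells.

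On the high-fat diet, *Reg3g* was lower than on the low-fat diet in enterocyte-like, stem-like, dividing-like, goblet-like and Paneth-like cells of both fractions, and so was *Reg3b* except in enterocyte-like cells of the crypt-labelled libraries. *Reg3a* was higher in enterocyte-like and dividing-like cells, and *Reg4* was somewhat higher in goblet-like and Paneth-like cells. After VSG, *Reg3a* was lower than in HFD sham in the summed enterocyte-like and dividing-like cells. *Reg3g* was higher than in HFD sham by more than 0.5 in Paneth-like cells of the crypt-labelled libraries, though not when cells were thinned to equal depth, and also in tuft-like cells of the villus-labelled ones, where that rested on 1 cell, and *Reg3b* was lower still or close to the HFD sham level. A pair of member and class was compared where it had a mean of at least 50 UMIs over the 3 libraries of a fraction and at least 20 cells in each, and it was called lower or higher beyond 0.5 on the log2 scale. For HFD sham against LFD sham, 9 of 20 pairs were lower and 6 higher in the crypt-labelled libraries, where 7.03% and 6.59% of all gene and class pairs were. In the villus-labelled libraries 15 of 25 pairs were lower and 6 higher, against 7.45% and 6.5% of all pairs. For HFD VSG against HFD sham, 11 of 20 were lower and 2 higher in the crypt-labelled libraries, against 5.23% and 6.81% of all pairs. In the villus-labelled libraries 11 of 25 were lower and 2 higher, but there 30.1% of all pairs were lower and 11.8% higher, so that the count of lower pairs stands nearer to its background. Both contrasts use the same HFD sham libraries, so an extreme value there moves them in opposite directions.

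**Figure D2:**
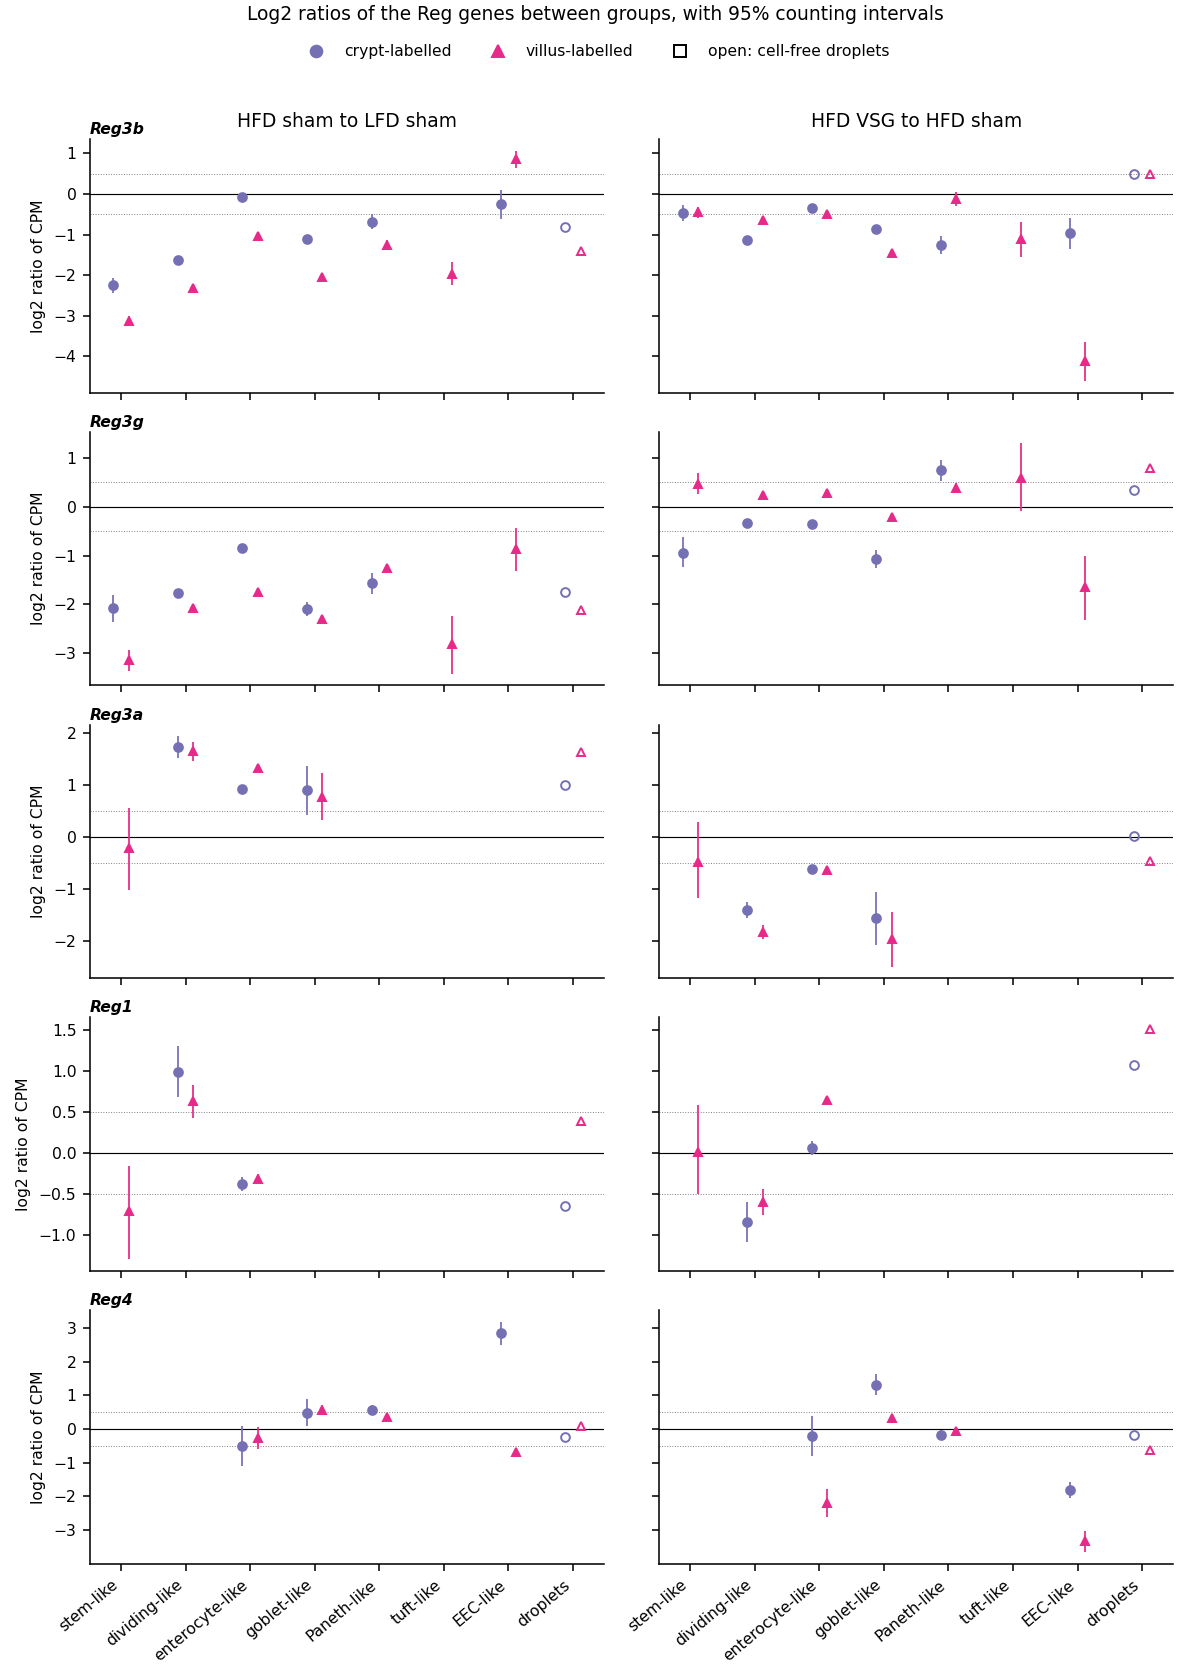
Log2 ratio of each member by class for HFD sham against LFD sham and for HFD VSG against HFD sham, with 95% counting intervals; dotted lines mark 0.5 in either direction and open symbols are droplets without a cell. *Reg3g* lies below 0 in every class drawn in the diet contrast, in EEC-like cells only while free RNA is not subtracted as an equal draw per droplet, and *Reg3a* lies above 0 in enterocyte-like, dividing-like and goblet-like cells, in the last only while free RNA is not subtracted at the fractions given in the study's methods.

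*Reg3g*, the lectin active against Gram-positive bacteria, had its highest median over the libraries in enterocyte-like cells, which stood above dividing-like cells in 5 of 6 libraries. It stood there at 2723 CPM in the LFD sham, 1513 CPM in the HFD sham and 1190 CPM in the HFD VSG crypt-labelled library. The villus-labelled libraries held 6070, 1818 and 2207 CPM in the same order. In both fractions the LFD sham library was the highest, and free RNA could account for at most 6.44% of these counts. HFD sham was lower than LFD sham by 0.85 on the log2 scale in the crypt-labelled (interval -0.86 to -0.83) and by 1.74 in the villus-labelled libraries (-1.75 to -1.73), or 1.80-fold and 3.34-fold. After VSG the ratio to HFD sham was -0.35 in the crypt-labelled and 0.28 in the villus-labelled libraries, of opposite sign and both within 0.5.

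*Reg3g* was lower on the high-fat diet in dividing-like, goblet-like and stem-like cells too. Dividing-like cells had 3933, 1149 and 913 CPM in the LFD sham, HFD sham and HFD VSG crypt-labelled libraries and 2324, 550.5 and 656 CPM in the villus-labelled ones. Goblet cells secrete mucus, and goblet-like cells had 2430, 568 and 272 CPM and then 2441, 493 and 425 CPM. The LFD sham library was the highest of the 3 in each case. HFD sham was lower than LFD sham by 1.78 and 2.08 in dividing-like and by 2.10 and 2.31 in goblet-like cells, in the crypt-labelled and villus-labelled libraries. Stem cells renew the epithelium from the crypt base, and stem-like *Reg3g* was 974, 232 and 121 CPM and then 882, 99.4 and 138 CPM, with 14.2% to 41.2% of it within reach of free RNA. Its diet ratio of -2.07 and -3.15 was larger than that in enterocyte-like cells in both fractions. In tuft-like cells of the villus-labelled libraries, chemosensory cells of the epithelium, *Reg3g* was 516, 73.9 and 112 CPM. These rested on 249, 28 and 57 UMIs, and 66.7% of the last were in 1 cell. An equal draw of free RNA was 714, 366 and 488 UMIs per droplet, at 3287, 759 and 1313 CPM of *Reg3g*. Much of the *Reg3g* in tuft-like cells of the LFD sham and HFD sham libraries was therefore within reach of free RNA. The VSG ratio there was 0.60 (interval -0.08 to 1.30) and turned to -0.43 without the top cell of each library. That of stem-like cells was 0.48 in the villus-labelled libraries. In the crypt-labelled ones it was -0.94, but 0.41 with doublets kept and 3.67 with free RNA subtracted at the fractions given in the study's methods, so that no direction is read from it. EEC-like cells of the villus-labelled libraries held 384, 210.3 and 67.0 CPM, with 83.1% of the HFD sham UMIs in 1 cell. By the same draw, free RNA could account for much of the LFD sham and HFD VSG counts of EEC-like cells. Their diet ratio of -0.87 turned to 0.46 with an equal draw of free RNA subtracted, and the crypt-labelled libraries had too few UMIs to compare.

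Paneth cells are the antimicrobial cells of the crypt base. Paneth-like cells held 1087, 367 and 617 CPM of *Reg3g* in the LFD sham, HFD sham and HFD VSG crypt-labelled libraries. The villus-labelled libraries held 1096, 458 and 598 CPM. HFD sham was the lowest and LFD sham the highest in both fractions, and free RNA could account for 3.45% to 13.1% by an equal draw per droplet. At the background fractions given in the study's methods, this share would be larger in both HFD sham libraries. The Paneth-like level was below that of droplets without a cell in 6 of 6 libraries. Those droplets ran in the same order, at 2785, 829 and 1049 CPM and then 3287, 759 and 1313 CPM. HFD sham was lower than LFD sham by 1.57 (interval -1.78 to -1.36) and 1.26 (-1.34 to -1.18). HFD VSG was higher than HFD sham by 0.75 (0.54 to 0.97) in the crypt-labelled libraries, but by only 0.17 when cells were thinned to 1500 UMIs, where 39.3% of HFD sham and 36.8% of HFD VSG Paneth-like cells carried a *Reg3g* UMI. In the villus-labelled ones the ratio was 0.38 (0.28 to 0.49), within 0.5 (0.58 thinned, with shares of 37.9% and 54.1%), and HFD VSG was lower than LFD sham by 0.82 and 0.87. The crypt-labelled values came from 65, 28 and 38 cells, and 1 cell carried 41.9% of the HFD sham UMIs and 19.9% of those of HFD VSG. Median depth was unequal, at 3030, 18566 and 40729.5 UMIs per Paneth-like cell and then 47026.5, 6877 and 3515 UMIs. The median of all genes in Paneth-like cells lay at -0.30 and -0.52 in the VSG contrast of the crypt-labelled and villus-labelled libraries, and the *Reg3g* ratios are not relative to it.

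*Reg3b*, the family member with the most RNA in this tissue, had its highest median in enterocyte-like cells too, and these stood above dividing-like cells in all libraries but LFD sham crypt-labelled. Enterocyte-like cells held 9994, 9539 and 7475 CPM in the LFD sham, HFD sham and HFD VSG crypt-labelled libraries. The villus-labelled libraries held 21073, 10223 and 7273 CPM. The crypt-labelled sham libraries were close together, and the LFD sham villus-labelled library stood above the other 5. The diet ratio was -0.07 (interval -0.07 to -0.06) in the crypt-labelled and -1.04 (-1.05 to -1.04) in the villus-labelled libraries. The crypt-labelled ratio passed 0.5 with at most 10% mitochondrial UMIs, at -0.78, and with equal weight for each cluster, at -0.52. The difference between the fractions was not tested. After VSG the ratios were -0.35 and -0.49, with 1.28-fold and 1.41-fold more in HFD sham. In the free RNA of the same libraries, VSG was higher than HFD sham by 0.48 and 0.49, opposite in sign to the enterocyte-like cells.

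In dividing-like, goblet-like, stem-like and Paneth-like cells *Reg3b* was lower on the high-fat diet in both fractions. Dividing-like cells had 12883, 4202 and 1914 CPM in the LFD sham, HFD sham and HFD VSG crypt-labelled libraries and 6796, 1367 and 883 CPM in the villus-labelled libraries. The order LFD sham, HFD sham, HFD VSG ran from high to low in both. The diet ratios were -1.62 (interval -1.65 to -1.58) and -2.31 (-2.35 to -2.28), and the VSG ratios were -1.13 and -0.63. Goblet-like *Reg3b* was 3441, 1589 and 868 CPM and then 3178, 774 and 280.0 CPM, with diet ratios of -1.12 and -2.04 and VSG ratios of -0.87 and -1.47. Free RNA could account for 12.2% to 50.9% of it, and with free RNA subtracted at the fractions given in the study's methods the crypt-labelled VSG ratio turned to 0.93. Stem-like *Reg3b* was 2463, 518 and 372 CPM in the crypt-labelled and 2445, 281 and 206 CPM in the villus-labelled libraries. Free RNA could account for 74.5% and 85.1% of it in the HFD sham and HFD VSG crypt-labelled libraries, and the diet ratio of -2.25 there became -3.91 once free RNA was subtracted. That share was at most 34.3% in the villus-labelled libraries, where the ratio of -3.12 became -3.37.

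In the rarer secretory classes *Reg3b* stood close to the free RNA. Paneth-like cells held 852, 530.0 and 222 CPM and then 484, 203 and 186 CPM, of which free RNA could account for 30.1% to 61.7%. In EEC-like cells, the hormone-making cells, the level was 89.4 to 1537 CPM and that share was 78.5% or more in 5 libraries. The HFD sham villus-labelled library was the exception, with 74.3% of its 475 EEC-like *Reg3b* UMIs in 1 cell. Tuft-like cells of the villus-labelled libraries held 1253, 322 and 149 CPM, with 51.2% to 65.5% within reach of free RNA. Immune-like cells exceeded free RNA in the HFD VSG crypt-labelled library, at 4280 CPM with 34.1% of the UMIs in 1 cell, and in the 6 cells of the HFD sham villus-labelled library. Thinned to 1500 UMIs, 81.9% to 91.7% of enterocyte-like cells of the 3 crypt-labelled and the LFD sham villus-labelled libraries carried a *Reg3b* UMI, against 87.5% to 92.5% of immune-like cells (median depths 11844 to 17580 and 3115 to 3658 UMIs). This share does not set the classes apart in these 4 libraries, and the level is read from CPM.

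Set against each other, *Reg3b* and *Reg3g* had a balance that depended on the class. Enterocyte-like cells held 3.67, 6.31 and 6.28 *Reg3b* UMIs for each *Reg3g* UMI in the LFD sham, HFD sham and HFD VSG crypt-labelled libraries. The villus-labelled libraries had 3.47, 5.62 and 3.30. The ratio was higher in HFD sham than in LFD sham in both fractions, and in the villus-labelled HFD VSG library it was below both. Paneth-like cells held more *Reg3g* than *Reg3b* in 5 of 6 libraries, with 0.784, 1.44 and 0.361 *Reg3b* UMIs per *Reg3g* UMI and then 0.442, 0.443 and 0.312. The exception was the HFD sham crypt-labelled library, where 1 cell held 59.8% of the Paneth-like *Reg3b* UMIs. The Paneth-like ratio was below the enterocyte-like one in all 6 libraries. Free RNA, at 2.55 to 6.34, was on the enterocyte side.

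**Figure D3:**
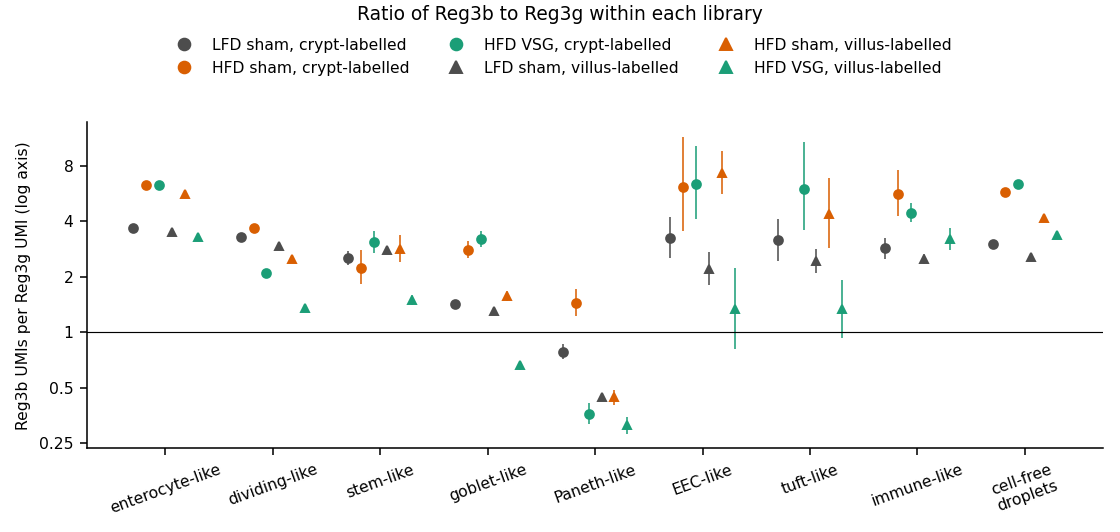
*Reg3b* UMIs per *Reg3g* UMI by class and library, with 95% counting intervals. Paneth-like cells lie lowest and fall below 1 in 5 of 6 libraries, while enterocyte-like cells and droplets without a cell lie between 2.55 and 6.34.

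*Reg3a* went the other way with diet. Enterocyte-like cells held 369 CPM in the LFD sham, 695 CPM in the HFD sham and 455 CPM in the HFD VSG crypt-labelled library. The villus-labelled libraries held 370, 926 and 598 CPM. HFD sham was the highest and LFD sham the lowest in both fractions, with HFD VSG between them, and free RNA could account for at most 2.77%. HFD sham was higher than LFD sham by 0.91 (interval 0.88 to 0.95) and 1.32 (1.29 to 1.36), or 1.88-fold and 2.50-fold. HFD VSG was lower than HFD sham by 0.61 and 0.63. Thinned to 1500 UMIs, 24.0%, 42.3% and 36.2% of enterocyte-like cells of the crypt-labelled and 25.9%, 59.9% and 43.5% of the villus-labelled libraries carried a *Reg3a* UMI, against 1.55% to 18.7% of immune-like cells in the 5 libraries with more than 6 of them. Dividing-like cells followed the same order at a lower level in the crypt-labelled libraries, at 92.0, 303 and 114 CPM. Their levels in the villus-labelled libraries were 38.1, 119 and 33.4 CPM. Their diet ratios were 1.72 and 1.64 and their VSG ratios -1.41 and -1.83. In goblet-like cells *Reg3a* was 6.56 to 94.0 CPM, with 19.3% to 59.8% within reach of free RNA. Its diet ratio there was above 0 in both fractions as counted and with an equal draw of free RNA subtracted, but turned to -1.01 and -3.54 with subtraction at the fractions given in the study's methods. The VSG ratio of the villus-labelled libraries, below 0 as counted, turned to 1.27 under the same subtraction. Stem-like, Paneth-like, tuft-like and EEC-like cells carried 1 to 102 *Reg3a* UMIs per library. With at least 20 cells, their CPM was below that of droplets without a cell in every library. This does not say how much of the *Reg3a* in them was free RNA.

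*Reg1*, the first gene of the family to be found, had few copies that were held by few enterocyte-like cells. The class stood at 74.0, 56.8 and 59.2 CPM in the LFD sham, HFD sham and HFD VSG crypt-labelled libraries and at 181, 145 and 226 CPM in the villus-labelled ones. All 3 villus-labelled libraries were above all 3 crypt-labelled ones. Between 28 and 178 cells per library had 10 or more *Reg1* UMIs, and these held 77.3% to 91.6% of the UMIs of the class. Diet ratios were -0.38 and -0.32, and the VSG ratios were 0.06 (interval -0.03 to 0.15) and 0.64 (0.59 to 0.69). In cluster 14, enterocyte-like cells that also expressed the interferon-induced gene *Ifit1*, *Reg1* reached 1510 CPM in 26 cells of the HFD VSG villus-labelled library. Dividing-like cells held 43.0 to 99.1 CPM, higher in HFD sham than in LFD sham by 0.99 and 0.63, and the latter turned to -0.28 when cells were thinned to 1500 UMIs. Goblet-like cells held 1.62 to 11.2 CPM. In Paneth-like, tuft-like and EEC-like cells 0 to 15 UMIs were seen per library.

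*Reg4* was highest in EEC-like, Paneth-like and goblet-like cells. Tuft-like cells had a median of 3.92 CPM (0 to 13 UMIs), below the droplets without a cell in the 5 libraries with at least 20 such cells. Paneth-like cells held 786, 1163 and 1036 CPM in the LFD sham, HFD sham and HFD VSG crypt-labelled libraries and 991, 1268 and 1212 CPM in the villus-labelled libraries, and free RNA could account for at most 0.265%. LFD sham was the lowest in both fractions. HFD sham was higher by 0.57 (interval 0.42 to 0.71) and 0.36 (0.30 to 0.41), and HFD VSG differed from HFD sham by -0.17 and -0.06. The median of all Paneth-like genes lay at -0.004 and 0.20 for diet and at -0.30 and -0.52 for VSG. The *Reg4* ratios are not relative to it. Paneth-like cells with a *Reg4* UMI numbered 51 of 65, 26 of 28 and 35 of 38 in the crypt-labelled libraries, and 150 of 170, 194 of 225 and 43 of 86 in the villus-labelled ones. Their median depth ran from 3030 to 47026.5 UMIs, and thinned to 1500 UMIs the shares were 50.8%, 67.9% and 71.1%, and then 59.2%, 68.8% and 45.9%, against 0.274% to 1.28% of enterocyte-like cells (median depths 11844 to 33893 UMIs). Goblet-like cells held 84.4, 118 and 295 CPM and then 138, 205 and 255 CPM. LFD sham was the lowest and HFD VSG the highest in both fractions. The VSG ratio there was 1.32 (1.00 to 1.65) in the crypt-labelled and 0.32 (0.19 to 0.44) in the villus-labelled libraries, and 1 cell held 32.7% of the UMIs in the crypt-labelled HFD VSG library. Enterocyte-like cells held 1.18 to 6.43 CPM, of which free RNA could account for 63.2% to 127%. Stem-like cells reached 58.8 CPM in the HFD sham crypt-labelled library with 69.7% of the UMIs in 1 cell, and at most 10.2 CPM elsewhere.

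In EEC-like cells *Reg4* was concentrated in a few cells that also made *Tph1*, the serotonin-synthesis enzyme of enterochromaffin cells. The class held 454, 3247 and 923 CPM in the crypt-labelled and 3648, 2252 and 223 CPM in the villus-labelled libraries. Cells with at least 3 *Reg4* UMIs numbered 5 of 30, 5 of 21 and 3 of 32, and then 8 of 42, 5 of 40 and 1 of 27. Each of these cells also had at least 3 *Tph1* UMIs in 5 libraries, and 4 of 5 had in the HFD sham villus-labelled library. A single cell held 23.9% to 99.0% of the EEC-like *Reg4* UMIs of a library. The levels of the libraries in this class are thus those of 1 to 8 cells each, and no order between groups is read from them.

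Ordered by the median over 6 libraries, *Reg3b* ran from enterocyte-like (9767 CPM) to dividing-like (3058), goblet-like (1229), EEC-like (939), stem-like (445) and Paneth-like cells (353). Each neighbour's range overlapped the next. *Reg3g* ran from enterocyte-like (2012 CPM) to dividing-like (1031), Paneth-like (608), goblet-like (530), EEC-like (189) and stem-like cells (185), again with overlap throughout. Within libraries, however, Paneth-like cells stood above goblet-like cells in only 2 of 6, and EEC-like above stem-like cells in only 1 of 6. *Reg3a* in enterocyte-like cells (526 CPM) did not overlap with dividing-like cells (103), which were higher than goblet-like cells (28.6). For *Reg4*, EEC-like cells (1587 CPM, range 223 to 3648) overlapped with Paneth-like (1100) and with goblet-like cells (171, range 84.4 to 295). Paneth-like cells stood apart from goblet-like cells, which stood apart from the stem-like (5.82). *Reg1* in enterocyte-like cells (110 CPM) overlapped with dividing-like cells (52.7), and these did not overlap with stem-like cells (21.1).

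Within the enterocyte-like class the lectins were spread unevenly over cells. The median cell held 1681, 2215 and 3058 CPM of *Reg3b* in the LFD sham, HFD sham and HFD VSG crypt-labelled libraries and 12206, 5174 and 2920 CPM in the villus-labelled ones. In the crypt-labelled libraries this order was the reverse of that of the class sums, and the top 10% of cells held 70.3%, 52.4% and 42.6% of the UMIs. For *Reg3g* the median cell stood at 413, 257 and 319 CPM and then at 4030, 575 and 985 CPM. For *Reg3a* it stood at 63.5, 320 and 262 CPM and then at 111, 709 and 336 CPM, in the same order as the sums. Across enterocyte-like cells of a library, *Reg3b* and *Reg3g* had a Spearman's rho of 0.64 to 0.90, while *Reg3a* and *Reg3b* had -0.11 to 0.50. These describe 1765 to 3311 cells that share a library and its depth, and no p is given.

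**Figure D4:**
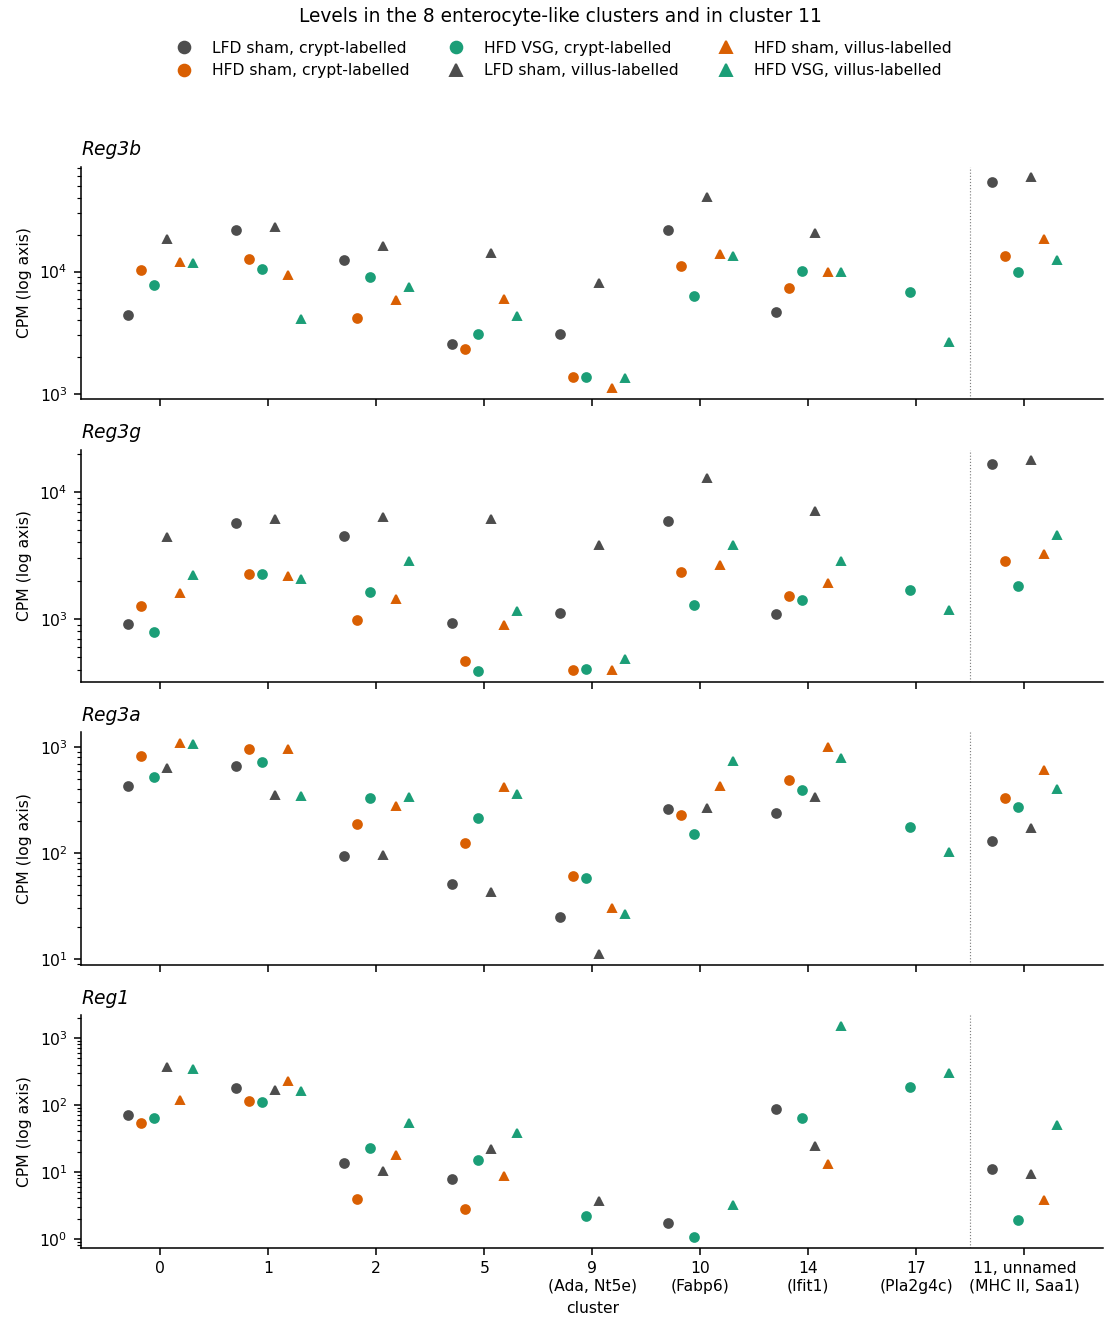
Level of *Reg3b*, *Reg3g*, *Reg3a* and *Reg1* in CPM (log axis) in the 8 enterocyte-like clusters and in cluster 11, 1 symbol per library, for points with at least 20 cells and 3 UMIs. Cluster 11 in the LFD sham libraries reaches 53602 and 59071 CPM of *Reg3b*, above every other *Reg3b* point.

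The extreme was a small cluster that stayed unnamed. Cluster 11 met 10 of 10 enterocyte markers but was led by *Igkc*, *Cd52* and genes of major histocompatibility complex class II, with *Ptprc* and the acute-phase gene *Saa1*. It held 166, 115 and 109 cells of the crypt-labelled and 159, 86 and 52 cells of the villus-labelled libraries, or 1.36% to 4.51% of the epithelial cells. *Reg3b* stood there at 53602, 13319 and 9948 CPM and at 59071, 18403 and 12422 CPM, that is 5.36% and 5.91% of all UMIs of these cells in the LFD sham libraries. *Reg3g* stood at 16453, 2842 and 1831 CPM and at 17733, 3236 and 4621 CPM. The LFD sham libraries were the highest for both genes. Of the cluster's cells, 166, 115 and 107 and then 82, 85 and 45 carried no *Ptprc* or *Igkc* UMI. *Reg3b* stood in those cells at 53602, 13319 and 9775 CPM and at 63798, 18530 and 13822 CPM. The cluster carried 27.3% of the epithelial *Reg3b* UMIs of the LFD sham crypt-labelled library, against 4.38% to 14.7% in the other 5. HFD sham was lower than LFD sham by 2.01 and 1.68 for *Reg3b* and by 2.53 and 2.45 for *Reg3g*, and higher by 1.34 and 1.83 for *Reg3a*. When these cells were counted as enterocyte-like, the diet ratio of *Reg3b* in the crypt-labelled libraries moved from -0.07 to -0.44.

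The diet difference ran through the named clusters of enterocyte-like cells in the villus-labelled libraries. *Reg3b* and *Reg3g* were lower in HFD sham than in LFD sham by more than 0.5 in 7 of 7 clusters with enough cells, and *Reg3a* was higher in 6 of 6, by 0.69 to 3.30. Of all pairs of gene and enterocyte-like cluster there, 7.58% were lower and 9.14% higher. In the crypt-labelled libraries *Reg3g* was lower in 5 of 7 and higher in 0, and *Reg3a* was higher in 6 of 7. *Reg3b* was split there, lower in 4 and higher in 2 of 7 clusters, from -1.56 in cluster 2 to 1.23 in cluster 0, where 8.32% of all pairs were lower and 6.63% higher. After VSG, *Reg3b* was lower in 1 and higher in 1 of 7 crypt-labelled clusters and lower in 1 and higher in 0 of 7 villus-labelled ones. *Reg3g* was lower in 2 and higher in 1 of 7 crypt-labelled clusters, and lower in 0 and higher in 3 of 7 villus-labelled ones. *Reg3a* was lower in 2 and higher in 2 of 7 crypt-labelled clusters (median -0.34), and lower in 1 and higher in 1 of 6 villus-labelled ones (median -0.13), so that the lower class sum after VSG was not seen in most clusters at this size. Of all pairs of gene and cluster, 3.09% were lower and 15.9% higher after VSG in the crypt-labelled libraries, and 18.1% and 21.7% in the villus-labelled ones.

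Enterocytes switch programmes as they climb the villus, and cells were ordered by the share of their UMIs from 10 villus-tip genes into 4 bins. These bins are ranges of a score rather than cell types, 17.9% of cells lay within 10% of a bin limit, and the tip genes themselves differed: 7 of 10 were lower in HFD sham than in LFD sham in the villus-labelled libraries and 10 of 10 were lower in HFD VSG than in HFD sham. *Reg1*, *Reg3a*, *Reg3b* and *Reg3g* were all higher in the lowest than in the highest bin, in 6 of 6 libraries, and *Reg4* was not compared. The share of all genes that did so was not counted, so this is not read as a trait of the family. Only *Reg3g* peaked in the lowest bin in every library, and *Reg3a* peaked in bin 2, next to the lowest, in every library. The HFD VSG villus-labelled library had 1351 cells in the lowest and only 86 in the highest bin. For *Reg3g* the fold was 1.58 to 10.5 and for *Reg3b* it was 1.46 to 12.7. *Apoa4*, an apolipoprotein gene that takes many of the tip UMIs, decided much of the size. Without it the *Reg3g* fold was 0.795 in the LFD sham villus-labelled library and 1.52 to 5.26 in the others, going from 10.5 to 1.52 in the LFD sham crypt-labelled one. The *Reg3b* fold was 1.21 to 5.45, and the lowest of all with *Apoa4*, 1.46 in the HFD VSG villus-labelled library, became the highest.

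The diet differences of *Reg3a* and *Reg3g* were less dependent on the ordering. *Reg3a* was higher in HFD sham than in LFD sham in all 8 combinations of bin and fraction, by 0.54 to 4.62 with all 10 tip genes and by 0.65 to 2.09 without *Apoa4*. *Reg3g* was below 0 in 7 of 8 with all 10 genes, the exception being bin 3 of the crypt-labelled libraries at 0.24, and in 8 of 8 without *Apoa4*, by 0.46 to 3.50. After VSG *Reg3a* was lower than in HFD sham by 0.15 to 0.64 over the bins of the crypt-labelled libraries, while the villus-labelled bins stood at -0.68, 0.08, 0.11 and -0.90 from the lowest to the highest. Without *Apoa4* all 8 were below 0, at -0.33 to -1.70 and at -0.73, -0.24, -1.52 and -2.83. *Reg3b* in the crypt-labelled libraries depended on the ordering: bin 1 stood at -1.18 with *Apoa4* and at 0.26 without it, and bin 3 at 1.26 and at -0.10. *Reg3b* in the villus-labelled libraries was below 0 in each of the 4 bins both ways.

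**Figure D5:**
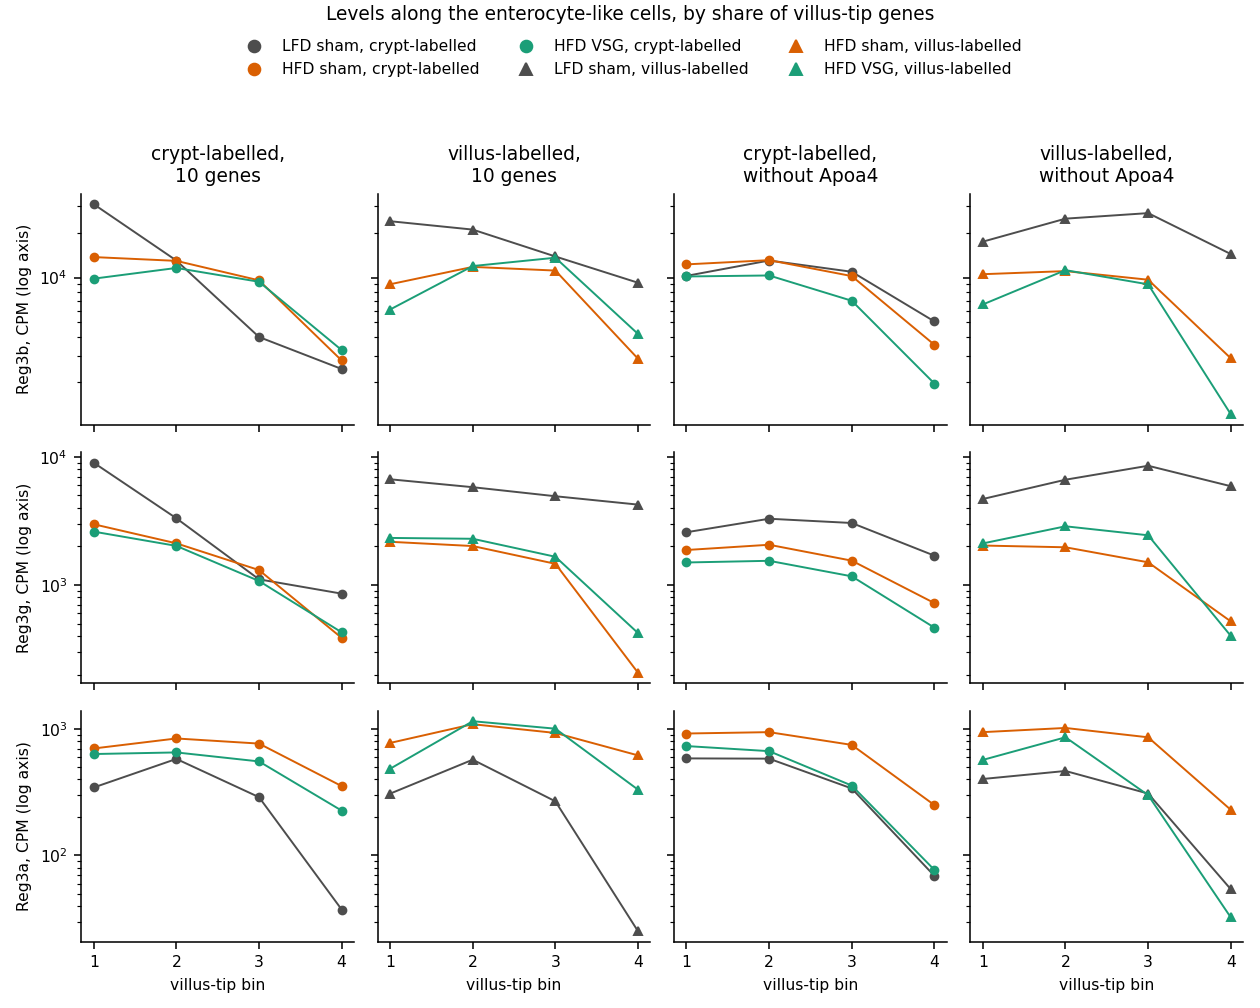
*Reg3b*, *Reg3g* and *Reg3a* in CPM (log axis) in 4 bins of enterocyte-like cells from the lowest to the highest share of villus-tip UMIs, 1 line per library, with all 10 tip genes and without *Apoa4*. The HFD sham line lies above the LFD sham line for *Reg3a* in every bin.

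Genes of the pathways known to act on *Reg3b* and *Reg3g* were compared at the same size of 0.5 on the log2 scale. In the diet contrast 6.98% of all enterocyte-like genes were lower and 6.09% higher in the crypt-labelled libraries. The villus-labelled shares were 10.4% and 4.63%. A count of 0 or 1 in lists as short as these stands near that background. Of 8 tested genes of the interleukin 22 receptor and STAT3 pathway, 0 passed 0.5 in enterocyte-like cells in either fraction, with medians of -0.14 and 0.01 beside 0.00 and -0.04 for all genes. In HFD VSG against HFD sham 0 of 8 passed in the crypt-labelled libraries, and 4 of 8 were lower in the villus-labelled ones (median -0.62, all genes 0.03), where 19% of all enterocyte-like genes were lower. The receptor chain gene *Il22ra1* went there from 11.3 to 2.78 CPM. Of 9 genes of Toll-like receptor and NF-kB signalling, 0 passed in the crypt-labelled and 1 was lower in the villus-labelled diet contrast, the feedback inhibitor *Tnfaip3* at -0.62. After VSG 0 and 3 of 9 were lower, with the NF-kB cofactor *Nfkbiz* lowest at -1.07 in the villus-labelled libraries.

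Of the other antimicrobial and microbe-response genes, more were lower than higher on the high-fat diet in enterocyte-like cells. There 6 of 18 were lower and 2 higher in the crypt-labelled libraries (median -0.32), and 10 were lower and 1 higher in the villus-labelled ones (median -0.55). Of all genes in these cells, 6.98% and 10.4% were lower and 6.09% and 4.63% higher. The other classes of the villus-labelled libraries had fewer lower than higher genes of the list in 3 cases, with 2 lower and 4 higher of 16 in dividing-like, 3 and 4 of 16 in goblet-like, and 0 and 4 of 7 in tuft-like cells. The shares of all genes lower and higher there were 9.76% and 7.32%, 4.85% and 2.65%, and 3.83% and 7.85%. *Saa1*, an acute-phase protein gene, had the lowest diet ratio in both fractions, with 12.5 CPM in LFD sham against 1.59 CPM in HFD sham and then 27.4 against 0.287 CPM. *Dmbt1*, a mucosal scavenger receptor gene, went from 292 to 51.7 CPM in the villus-labelled libraries and stood at 257 CPM after VSG. After VSG 3 of 18 were lower and 6 higher in the crypt-labelled and 9 lower and 5 higher in the villus-labelled libraries. All genes of the class were lower in 1.99% and higher in 6.66% of cases in the crypt-labelled, and in 19% and 25.4% in the villus-labelled libraries. *Sprr2a3*, which encodes a small proline-rich protein, had the highest VSG ratio in both, at 3.17 and 3.28. *Lyz1*, the lysozyme gene of Paneth cells, had the lowest, at -0.65 and -2.28. With an equal draw of free RNA subtracted, 0 of its UMIs remained in the enterocyte-like cells of either HFD VSG library, and 12 Paneth cell markers summed there went from 681 to 444 CPM and from 2802 to 719 CPM. *Extl3*, proposed as a receptor for Reg proteins, stood at only 2.53 to 4.41 CPM, with a diet ratio of -0.56 (interval -0.99 to -0.13) and a VSG ratio of 0.55 (0.16 to 0.96) in the crypt-labelled libraries and -0.32 and 0.14 in the villus-labelled ones.

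Over 36 points of class and library, the genes whose level was most like that of each member were found among 8879 genes by Pearson's r of log2(CPM + 1), with no p since points share libraries. *Reg3g* was most like *Reg3b* (r = 0.81), followed by *Stom* and *Ptk6* (both 0.68). *Reg3b* was most like *Mttp* and *Il18* (both 0.89), which encode the lipid transfer protein of chylomicron assembly and an epithelial cytokine. *Reg3a* was most like *Hsd17b6*, *Erich4* and *Aldh1a1* (each 0.95). *Reg1* was most like *Ces2g*, *2810408A11Rik* and *Mgst1* (each 0.88), and *Reg4* was most like *Ccpg1* (0.95), *Trp53inp1* (0.90) and *Bambi* (0.89).

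The RNA outside cells gave a separate view of the same libraries. In droplets without a cell, *Reg3b* stood at 8338, 4758 and 6650 CPM in the LFD sham, HFD sham and HFD VSG crypt-labelled libraries and at 8378, 3162 and 4433 CPM in the villus-labelled ones. *Reg3g* stood at 2785, 829 and 1049 CPM and at 3287, 759 and 1313 CPM, and *Reg3a* at 137, 272 and 276 CPM and at 90.3, 280.2 and 203 CPM. HFD sham was the lowest for *Reg3b* and *Reg3g* in both fractions, and LFD sham was the lowest for *Reg3a*. HFD sham was lower than LFD sham by 1.75 and 2.12 for *Reg3g* and higher by 1.00 and 1.63 for *Reg3a*, of the same sign as in the enterocyte-like cells. HFD VSG was higher than HFD sham by 0.34 and 0.79 for *Reg3g* and by 1.07 and 1.51 for *Reg1*. Free RNA is a mixture from all lysed cells of a library, so fewer cells of a class and less RNA in each cannot be told apart there.

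Set side by side without a further comparison, HFD VSG stood below LFD sham in enterocyte-like cells by 0.42 and 1.53 for *Reg3b* and by 1.19 and 1.46 for *Reg3g*, and above it by 0.30 and 0.69 for *Reg3a*. Of the pairs tested, 12 of 20 were lower and 2 higher than in LFD sham in the crypt-labelled libraries (5.66% and 8.47% of all pairs). In the villus-labelled libraries 19 of 25 were lower and 2 higher (30.4% and 10.9%).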

How the data were processed

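Single-cell 3′ RNA-seq (10x Genomics v3.1) of 6 libraries was analysed. The authors deposited raw and filtered matrices of UMI counts made with Cell Ranger 6.0.0 on mm10, per the labels and the study's methods, and no normalization had been applied. Called barcodes with at least 750 genes and at most 20% mitochondrial UMIs were kept, after simulated doublets (2 per barcode, 20 neighbours, 30 components) marked the top 0.8% per 1000 called barcodes for removal, 4794 in all. Cells were integrated and clustered in Seurat 5.3.0 with sctransform 0.4.2 (R 4.3.3; 2000 genes, 30 components, resolution 0.4) without the 5 members. A cluster took the best-scoring class of which more than 50% of markers, and at least 3, were 3-fold above the lower quartile of clusters and in 10% of cells. It stayed unnamed if its 10 leading genes held a gene of damaged droplets or more markers of another class. A shallow cluster also stayed unnamed with fewer than 5 markers of its class among those genes. The members, gene lists and rules were chosen with earlier results of these data known. The genes named are the 5 members, the 3 genes most like each, and at most 2 extremes of a list at either end.

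UMIs were summed per class and library and scaled to CPM. Log2 ratios carry exact conditional intervals (95%, scipy 1.17.1), and sums under 3 were set to 3. With 1 library per group, no p-value was computed. Reads without an independent library per animal leave the spread between mice unmeasured. The make-up of free RNA was taken from droplets on the UMI plateau between 200 and 2000 UMIs. Its amount, an equal draw per droplet, was set in each library from enterocyte marker UMIs in immune-like cells. In the HFD sham villus-labelled library these were only 6 cells, against 75 to 562 in the others, so its free RNA shares are the least certain. Gene positions were those of GENCODE M21. Scripts were tested on simulated data. Alternatives to each choice, including free RNA subtraction, thinning, stricter filters and other scalings, are reported in the closing section. The amino acid sequences were not analysed here.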

Additional observations from a re-analysis of the deposited data

Results flagged for a closer look

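The HFD sham to LFD sham ratio of *Reg4* in EEC-like cells had opposite signs in the 2 fractions, at 2.84 on the log2 scale (interval 2.50 to 3.19) in the crypt-labelled and -0.70 (-0.83 to -0.56) in the villus-labelled libraries. The difference was not tested. The *Reg4* levels behind it were 454 and 3247 CPM in the crypt-labelled and 3648 and 2252 CPM in the villus-labelled LFD sham and HFD sham libraries. In the HFD sham libraries 66.2% and 64.2% of these UMIs were in 1 cell. EEC-like cells with at least 3 *Tph1* UMIs numbered 7 of 30 and 10 of 21 in the crypt-labelled and 12 of 42 and 7 of 40 in the villus-labelled libraries. The share of the *Reg4* UMIs in these cells was not computed.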

How the results depend on the processing

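No paired analysis was possible because each group and fraction is 1 library, with no replicate numbers to pair and none to leave out. Of 1066 comparisons of a member's log2 ratio with its value under an alternative, 686 stayed within the counting interval, 359 moved further and 21 that had been beyond 0.5 changed sign. Of 733 that were beyond 0.5, 682 stayed so on the same side. The counts of lower and higher pairs that moved by over 1.5 times were these. With free RNA subtracted at the fractions given in the study's methods, VSG pairs were 6 higher in the crypt-labelled and 7 lower and 6 higher in the villus-labelled libraries. With at least 1500 genes, 1 of 15 pairs with enough UMIs and cells was higher after VSG in the crypt-labelled libraries, and 54 of 54 ratios beyond 0.5 that could be recomputed stayed so. With at most 10% mitochondrial UMIs, VSG pairs were 7 lower in the crypt-labelled and 4 higher in the villus-labelled libraries, and diet pairs 3 higher in the villus-labelled. Median-of-ratios scaling gave 6 higher after VSG in the villus-labelled libraries. Cells thinned to 1500 UMIs gave 1 higher for diet and 4 lower and 0 higher for VSG of 11 pairs left in the crypt-labelled libraries, and 2 higher for diet and 4 lower for VSG of 15 left in the villus-labelled, and over the pairs of the unthinned comparison 50 of 62 ratios stayed beyond 0.5. A size of 1 gave 2 higher for diet and 6 lower and 1 higher for VSG in the crypt-labelled, and 2 higher for diet and 0 higher for VSG in the villus-labelled. A minimum of 200 UMIs gave 1 higher after VSG in the villus-labelled. Counting cluster 11 as enterocyte-like, chosen after seeing the data, moved none of these counts by over 1.5 times.

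None of the ratios beyond 0.5 that changed sign was in the enterocyte-like class, where the crypt-labelled *Reg3b* diet ratio, within 0.5, ran from -0.78 at 10% mitochondrial UMIs to 0.12 with subtraction at the stated fractions. The cause was not tested. For diet, subtraction at the stated fractions gave *Reg3a* -1.01 and -3.54 in goblet-like cells of the crypt-labelled and villus-labelled libraries. For VSG it gave *Reg3a* 1.27 in villus-labelled goblet-like, *Reg3b* 0.93 in crypt-labelled goblet-like, 2.74 in crypt-labelled EEC-like and 2.62 in villus-labelled tuft-like, and *Reg3g* 3.67 in crypt-labelled stem-like cells. Equal subtraction gave a diet ratio of *Reg3g* of 0.46 in villus-labelled EEC-like cells. The diet ratio of *Reg3b* in villus-labelled EEC-like cells was -0.93 at 10% mitochondrial UMIs, -1.36 with doublets kept, -0.79 thinned and -0.87 without the top cell. Thinning also gave *Reg1* in villus-labelled dividing-like cells -0.28 for diet and 0.084 for VSG (0.061 at resolution 0.8), and *Reg3b* in crypt-labelled Paneth-like cells 0.010 for VSG. The VSG ratio of villus-labelled tuft-like cells was 0.14 for *Reg3b* at 10% mitochondrial UMIs and -0.43 for *Reg3g* without the top cell. That of *Reg3g* in crypt-labelled stem-like cells was 0.41 with doublets kept. In villus-labelled EEC-like cells the VSG ratio of *Reg3g* was 0.72 at 10% mitochondrial UMIs and 0.59 without the top cell. Without *Apoa4*, *Reg3g* in the LFD sham villus-labelled library was lower in the lowest than in the highest tip bin by 0.33 (-0.33). Paneth-like, tuft-like and EEC-like classes held 11 to 225 cells per library and stem-like 43 to 455, and pairs under a mean of 50 UMIs or under 20 cells were not compared.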
